A study of Homo sapiens with 6 samples.

Results

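The genes described here are 10 members of the TRAIL, FAS and death receptor pathway: TNFSF10, TNFRSF10A, TNFRSF10B, TNFRSF10D, FAS, XAF1, XIAP, CASP8, CASP10 and CFLAR. They were taken by symbol from the 57820 genes of the expected-count table, and all 10 were present. RNA was measured in M14, a human melanoma cell line that carried an inducible shRNA against STAG2, a subunit of the cohesin complex. Doxycycline switched the shRNA on in 3 libraries (STAG2-KD), and 3 libraries came from the same line without doxycycline (WT), all collected after 5 days and kept under puromycin. Both groups therefore carried the vector. A single shRNA and a single cell line were used, and no group received doxycycline without the shRNA, so an effect of doxycycline and an effect of STAG2 loss cannot be told apart. The series set out to learn how STAG2 loss alters genome folding and gene activity in melanoma, and the comparison of STAG2-KD with WT gives the expression side of that question.

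TRAIL, the protein of TNFSF10, is a ligand of the TNF family that binds the death receptors DR4 (TNFRSF10A) and DR5 (TNFRSF10B), while TNFRSF10D encodes a decoy receptor that binds TRAIL and carries no complete death domain. Bound death receptors, FAS among them, recruit the initiator caspases CASP8 and CASP10, and CFLAR (c-FLIP) resembles CASP8 and restrains its activation. XIAP blocks caspases further down the pathway, and XAF1 binds XIAP and opposes it. Several of these genes, TNFSF10 and XAF1 among them, are known as interferon-inducible.

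Because of that background, short stretches of the members' start regions are shown for TNFSF10, CASP8 and XAF1. RefSeq windows (GRCh38.p14) of 300 bases, from 250 before to 50 after a transcription start, were used for 6 of the 10 members, with 16 windows. No window was used for TNFRSF10A, TNFRSF10B, TNFRSF10D and CASP10, so the start regions of these genes were not searched. The windows were searched on both strands for GAAANNGAAA (ISRE-type), TTCNNNGAA (GAS-type) and AANNGAAA (IRF-type, contained in the ISRE-type letters and added after the windows had been seen). Over all 35116 windows of that length, 3.57% held the ISRE-type letters, 7.66% the GAS-type and 22.8% the IRF-type. Capitals mark the match, and positions count from 0 at the first transcribed base. The TNFSF10 stretch is chr3:172523598-172523627 on the minus strand with its ISRE-type match at -187 to -178. The CASP8 stretches are on the plus strand, chr2:201233450-201233479 with an ISRE-type match at -3 to 6 and chr2:201233253-201233282 with a GAS-type match at -200 to -192. Both lie in the CASP8 window furthest upstream. The CASP8 window furthest downstream, chr2:201260286-201260585, held none of the 3 motifs, and which start these cells use was not tested. The XAF1 stretch is chr17:6756031-6756060 on the plus strand, and it holds 2 of the 3 IRF-type matches of its window, at -4 to 3 and 7 to 14.
TNFSF10, ISRE-type: gaggagcttcTTTCAGTTTCcctcctttcc
CASP8, ISRE-type: gagtttttggTTTCTGTTTCaccttgtgtc
CASP8, GAS-type: aaaattatttTTCCAAGAAgaaaataaacc
XAF1, IRF-type: ttgcctgcaagAAACGAAActcAACCGAAA
The stretches shown are the ISRE-type and GAS-type matches of all 16 windows, and the 30 bases of XAF1 that hold a pair of IRF-type matches. The commoner IRF-type letters occurred in 7 of the 16 windows, of 5 members. Those not shown lie at -49 to -42 in TNFSF10, at -65 to -58 in 1 FAS window, at -196 to -189 and -23 to -16 in 1 CFLAR window, at -229 to -222 in a further CASP8 window, and at -31 to -24 and, in its other window, -93 to -86 in XAF1. None of the 3 motifs was found in the windows of XIAP. At least 3 IRF-type matches, as in the XAF1 window, occurred in 1.25% of all windows. The cut of 3 equals the count of that window, and its motif was added after the windows were seen. That share is therefore no test of rarity. The XAF1 windows held no ISRE-type or GAS-type match. A match describes letters, and binding was not measured here.

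The libraries held between 24895998 and 35181733 expected counts, and values are given as CPM, counts scaled to a common library size by the TMM method. A floor of 3 counts corresponded to between 0.0870 and 0.112 CPM and covers counting error only. The knockdown check held in every library: STAG2 measured 66.5, 34.8 and 28.8 CPM in WT replicates 1 to 3 and 16.0, 7.31 and 6.69 CPM in STAG2-KD, a log2 fold change of -2.12 (SE 0.43, edgeR adjusted p = 0.0342). Replicate 1 stood apart in both groups by its melanocyte markers, and by its mitochondrial counts in WT only. Genes above 0 numbered 20646 in WT replicate 1 and 16028 in STAG2-KD replicate 1, against 17103 to 17995 elsewhere. WT replicate 1 had 5.07% mitochondrial counts against 2.12% to 2.94% elsewhere, and the summed level of 8 melanocyte markers was 6311 CPM there and 2606 CPM in STAG2-KD replicate 1, against 1861 to 1916 CPM in the other WT and 1195 to 1267 CPM in the other STAG2-KD libraries. All 8 markers were present. Without a replicate block 1 was lower in STAG2-KD (0.839% of all tested genes), and with it 6 were (4.42%). In replicates 2 and 3 TYR went the other way. It lay at 380, 140 and 128 CPM in WT replicates 1 to 3 and at 367, 227 and 233 CPM in STAG2-KD. The part of the melanocyte markers in the results was not tested. Marker levels of other cell types were low for leukocytes, at 1.84 to 2.69 CPM summed over 6 markers in WT and 2.17 to 4.59 CPM in STAG2-KD, with CD3E at 0 in every library and PTPRC at 0 in 5 of 6. The summed fibroblast markers spanned 4.26 to 93.6 CPM in WT and 3.49 to 23.4 CPM in STAG2-KD, endothelial markers 2.51 to 3.80 and 2.08 to 5.72 CPM, and keratinocyte markers 28.8 to 44.4 and 18.03 to 27.6 CPM with KRT1 at 0 throughout.

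Of the 10 members, 8 passed the filter on low counts and were tested, and FAS and TNFRSF10D were not. XAF1 was the 1 member that rose at an adjusted p under 0.05, and 0 fell. Among all 15605 genes tested, 1.75% rose and 0.839% fell. With the replicate number as a block, 3 members rose and 0 fell, against 5.10% of all genes that rose and 4.42% that fell. In 6 of the 8 tested members all STAG2-KD libraries lay above all WT libraries, and in 0 all lay below, where 11.8% and 10.5% of all tested genes did so. The median log2 fold change was 0.90 over the 8 tested members, with 7 of them above 0, and -0.03 over all tested genes, with 48.0% above 0. At an unadjusted p under 0.05, 5 members were higher and 0 lower, against 7.77% and 6.98% of all tested genes. DESeq2 called 2 members higher and 0 lower, against 3.51% and 2.77% of the genes, and limma-voom 1 and 0, against 1.76% and 0.878%. Without replicate 1 in both groups, XAF1 and TNFRSF10A passed without the block, and TNFRSF10B had an adjusted p of 0.0501. These are bulk libraries, so a change in the share of expressing cells and a change in RNA per cell cannot be told apart.

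**Figure D1:**
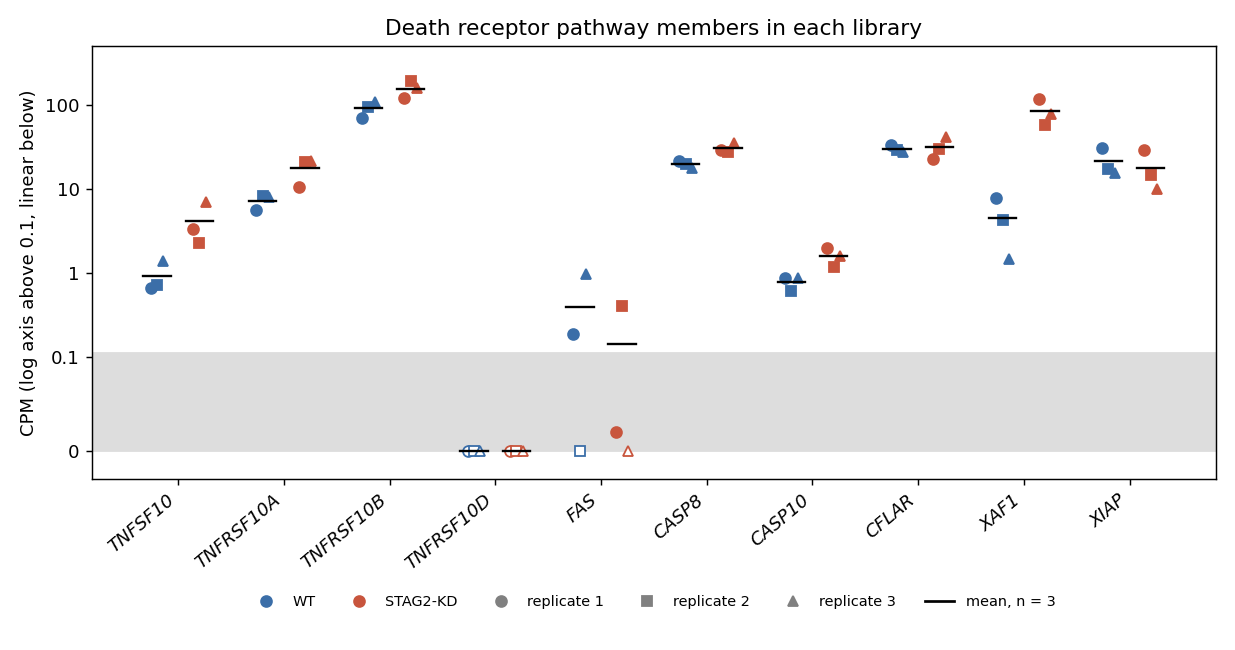
CPM of each member in each of the 6 libraries (vertical axis logarithmic above 0.1 and linear below), with WT and STAG2-KD points beside each other, black bars at the group means, open points at 0 and the grey band reaching up to the highest floor of 3 counts, 0.112 CPM. XAF1 lay at 1.46 to 7.71 CPM in WT and 57.9 to 117 CPM in STAG2-KD, and TNFRSF10D lay at 0 in all libraries.

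The ligand TNFSF10 (chromosome 3, 172223298 to 172241265 of GRCh37, minus strand) was measured at 0.671, 0.725 and 1.38 CPM in WT replicates 1 to 3, from 18, 25 and 38 counts. In STAG2-KD it was measured at 3.36, 2.27 and 6.92 CPM, from 108, 67 and 226 counts. The groups did not overlap, and the lowest STAG2-KD library was above the highest WT library. The WT libraries averaged 0.926 ± 0.397 CPM and the STAG2-KD libraries 4.18 ± 2.43 CPM (SD, n = 3 each). The fitted difference was 4.50-fold with a 95% interval from 1.52 to 13.3, and it did not pass the adjustment over all genes (log2 fold change 2.17, SE 0.70, edgeR adjusted p = 0.165). With the replicate block the adjusted p was 0.0871. Without STAG2-KD replicate 3, the library with the highest level, the log2 fold change was 1.58 (adjusted p = 0.602). Within the same-numbered libraries STAG2-KD was 5.01, 3.13 and 5.00 times WT. Leukocytes also express TNFSF10. The summed leukocyte markers given above lay above the gene in WT, at 1.84 to 2.69 against 0.671 to 1.38 CPM. In STAG2-KD the markers and the gene overlapped, at 2.17 to 4.59 and 2.27 to 6.92 CPM. There LYZ alone measured 1.97 to 2.17 CPM, and PTPRC was at 0 in every STAG2-KD library. The part of leukocytes in the level of TNFSF10 was not tested.

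The TRAIL receptor genes TNFRSF10A (23047965 to 23082615) and TNFRSF10B (22877646 to 22926544) lie on the minus strand of chromosome 8 of GRCh37. TNFRSF10A was measured at 5.60, 8.27 and 7.93 CPM in WT and at 10.5, 20.6 and 21.4 CPM in STAG2-KD. STAG2-KD replicate 1 was the lowest of its group and still above every WT library. The log2 fold change was 1.27 (SE 0.36, 2.41-fold, edgeR adjusted p = 0.115), and the block gave 1.22 (SE 0.26, adjusted p = 0.0152), which passed the threshold. Leaving replicate 1 out of both groups gave 1.38 and an adjusted p of 0.0212 without the block.

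TNFRSF10B, the DR5 gene, was measured at 70.4, 94.3 and 109 CPM in WT and at 119, 191 and 156 CPM in STAG2-KD. The groups again did not overlap, but WT replicate 3 and STAG2-KD replicate 1 were close. The log2 fold change was 0.77 (SE 0.24, 1.70-fold, edgeR adjusted p = 0.155), and the same value with the block had an SE of 0.16 and an adjusted p of 0.0132. Divided by the length of the canonical transcript, TNFRSF10B had the higher level of the 2 signalling receptors in both groups, with 22.8 against 2.701 CPM per kb in WT and 38.9 against 6.51 CPM per kb in STAG2-KD. TNFRSF10B overlaps RHOBTB2, on the opposite strand, by at most 377 exonic bases, and RHOBTB2 averaged 2090 counts in WT and 2146 in STAG2-KD. TNFRSF10A overlaps 2 RNA genes on the opposite strand, TNFRSF10A-AS1 with 18.3 mean counts in WT and 4.65 in STAG2-KD, and TNFRSF10A-DT with 86.6 and 137. The strand setting of the counting was not given in the sources used here.

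The decoy receptor gene TNFRSF10D (chromosome 8, 22993101 to 23021540, minus strand) was listed at 0 in all 6 libraries, which allows up to 0.112 CPM at the floor of 3 counts. FAS (chromosome 10, 90750414 to 90775542, plus strand), the gene of the FAS receptor, had 5, 0 and 27 counts in WT and 0.64, 12 and 0 counts in STAG2-KD. That corresponds to 0.186, 0 and 0.983 CPM in WT and 0.0199, 0.406 and 0 CPM in STAG2-KD. The libraries overlapped and WT replicate 3 alone carried most of the WT counts, so no difference was detectable at this depth (exact two-sided permutation test p = 0.7, smallest possible 0.1). TNFRSF10C, a further decoy receptor, named after its values were seen, was present at 5.93 ± 1.54 CPM in WT and 7.40 ± 1.12 CPM in STAG2-KD (SD, n = 3). TNFRSF10A, TNFRSF10B, TNFRSF10C and TNFRSF10D are paralogs, so how RSEM divided shared reads between them is uncertain.

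The initiator caspase CASP8 lies on chromosome 2 (202098166 to 202226559, plus strand) directly after CFLAR (201980877 to 202041410) and CASP10 (202047595 to 202094151). CASP8 was measured at 21.5, 19.7 and 17.8 CPM in WT and at 28.9, 27.5 and 34.99 CPM in STAG2-KD. The groups did not overlap. The difference was 1.55-fold (95% interval 1.10 to 2.19, log2 0.63, SE 0.22) and did not pass without the block (edgeR adjusted p = 0.207) or with it (adjusted p = 0.0846).

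CASP10, the second initiator caspase, was low in every library, at 0.869, 0.609 and 0.874 CPM in WT and 1.99, 1.18 and 1.598 CPM in STAG2-KD. The counts behind these values were 21 to 24 in WT and 34.9 to 64 in STAG2-KD. All STAG2-KD libraries were above all WT libraries, yet the fit gave a wide interval, from -0.96 to 3.01 around a log2 fold change of 1.02 (edgeR adjusted p = 0.698).

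CFLAR, the inhibitor of CASP8 activation, was measured at 32.8, 29.2 and 27.1 CPM in WT and at 22.8, 29.5 and 41.5 CPM in STAG2-KD. STAG2-KD replicate 1 was the lowest of all libraries and STAG2-KD replicate 3 the highest, so the groups overlapped. The log2 fold change was 0.07 with a 95% interval from -0.50 to 0.65 (edgeR adjusted p = 0.945), and without STAG2-KD replicate 3 it was -0.20 (adjusted p = 0.908).

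**Figure D2:**
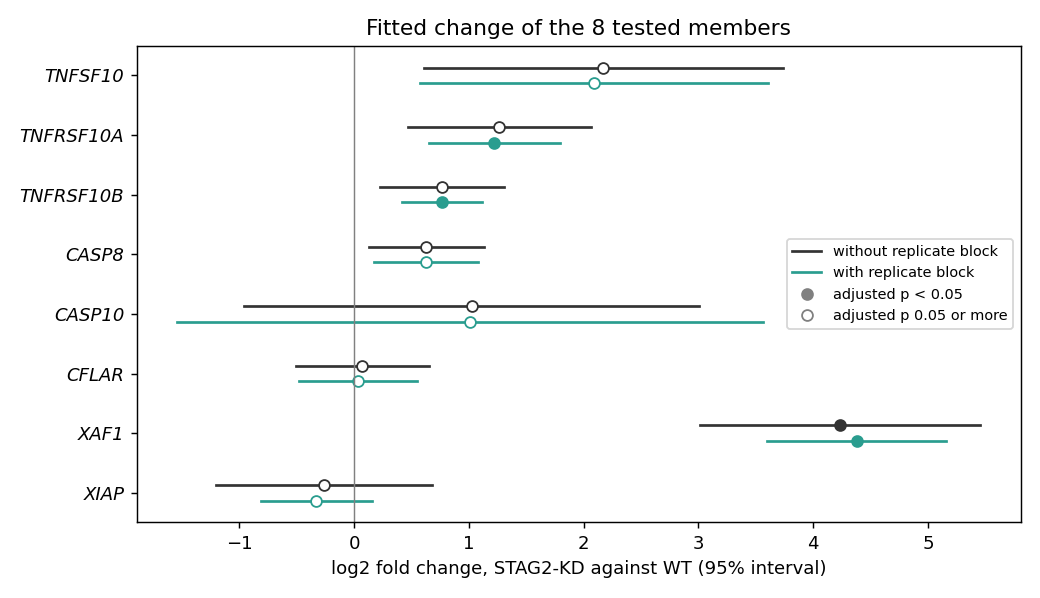
Fitted log2 fold change of STAG2-KD against WT (horizontal axis) with its 95% interval for the 8 tested members, without the replicate block (dark) and with it (green), where filled points have an adjusted p under 0.05. XAF1 is filled in both fits and TNFRSF10A and TNFRSF10B with the block only, while CASP10, CFLAR and XIAP have intervals that include 0.

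XAF1 (chromosome 17, 6658766 to 6678966 of GRCh37, plus strand), the antagonist of XIAP, was measured at 7.71, 4.24 and 1.46 CPM in WT replicates 1 to 3. In STAG2-KD it was measured at 117, 57.9 and 77.3 CPM. The groups did not overlap. XAF1 rose 18.8-fold (95% interval 8.06 to 43.9), a log2 fold change of 4.23 (SE 0.55, edgeR adjusted p = 0.00329), from 4.47 ± 3.14 to 84.1 ± 30.1 CPM (SD, n = 3). Within same-numbered libraries the folds were 15.2, 13.7 and 53.1, the highest in replicate 3, whose WT library had the lowest XAF1. Without WT replicate 1 the log2 fold change was 4.85 (adjusted p = 0.00107), and XAF1 passed in all 17 alternatives tried. PRAL, on the opposite strand, overlaps XAF1 by up to 2535 bases and has no row in the table, so XAF1 reads cannot be set against it.

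XIAP (chromosome X, 122993562 to 123047822, plus strand), the caspase inhibitor that XAF1 binds, ends 46.2 kb before STAG2. It was measured at 31.0, 17.1 and 15.6 CPM in WT and at 28.7, 14.6 and 9.95 CPM in STAG2-KD. The groups overlapped, replicate 1 was the highest library of each group, and each STAG2-KD library was below its same-numbered WT library, at 0.925, 0.853 and 0.638 of it. The log2 fold change was -0.26 with a 95% interval from -1.20 to 0.68 (edgeR adjusted p = 0.859), and with the block it was -0.33 with an interval from -0.81 to 0.16. Without WT replicate 1 it was 0.10 (adjusted p = 0.950).

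Ratios within a library do not depend on its scaling, and 2 were tested across libraries with 0.5 added to each count. The ratio of CFLAR to CASP8 counts was 1.53, 1.48 and 1.52 in WT and 0.791, 1.07 and 1.19 in STAG2-KD. The WT libraries lay close together and all STAG2-KD libraries lay below them, with log2 means of 0.60 ± 0.02 and 0.00 ± 0.30 (SD, n = 3). The difference of -0.59 had an exact two-sided permutation p of 0.1, the smallest that 3 libraries against 3 can give, and 0.1 after adjustment over the 2 ratios. Counts are not divided by transcript length, and the canonical transcripts hold 14612 bases for CFLAR and 2659 for CASP8. Per kb CFLAR was below CASP8, at 2.03 against 7.39 CPM in WT and 2.14 against 11.4 CPM in STAG2-KD. The ratio of XAF1 to XIAP counts was 0.249, 0.249 and 0.0945 in WT and 4.08, 3.97 and 7.76 in STAG2-KD. XIAP had more counts than XAF1 in every WT library and fewer in every STAG2-KD library. The log2 difference was 4.80 with the same exact p of 0.1. Sign-flip tests over the same-numbered pairs gave p = 0.25 for both ratios, the smallest an exact test over 3 pairs can give.

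**Figure D3:**
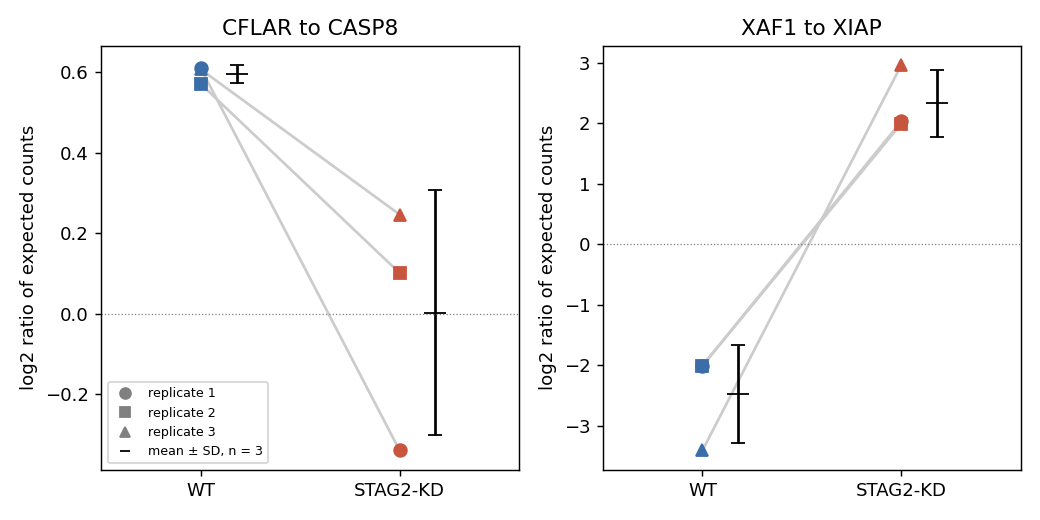
log2 ratio of expected counts in each library for CFLAR to CASP8 and for XAF1 to XIAP (vertical axes differ), with grey lines joining libraries of the same replicate number and black bars for the mean ± SD of 3 libraries. The CFLAR to CASP8 ratio lay between 0.57 and 0.61 on the log2 scale in WT and between -0.34 and 0.25 in STAG2-KD.

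The other genes of the pathway were described by 4 lists holding 63 genes, of which 57 were tested. Of these, 1 rose and 1 fell, where 1.75% and 0.839% of all tested genes did. With the block 7 rose and 4 fell, where 5.10% and 4.42% of all tested genes did, so the count that fell was near the share over all genes. The median log2 fold change was 0.17 over the 57 genes and -0.03 over all tested genes. RBCK1 and BIRC5 were called in both fits. RBCK1, a subunit of the linear ubiquitin ligase that acts at TNF receptor complexes, was measured at 116, 169 and 160 CPM in WT and at 284, 380 and 356 CPM in STAG2-KD (log2 fold change 1.20, SE 0.22, edgeR adjusted p = 0.0221). BIRC5, the gene of survivin, an inhibitor of apoptosis that also acts in mitosis, was measured at 175, 227 and 332 CPM in WT and at 46.7, 86.5 and 88.7 CPM in STAG2-KD (log2 fold change -1.72, SE 0.31, adjusted p = 0.0214). The groups did not overlap for either gene. Both calls were lost when WT replicate 2 or 3 or STAG2-KD replicate 2 or 3 was left out, and the BIRC5 call also without STAG2-KD replicate 1.

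Among other death ligands and receptors, 12 of 15 genes were tested and 0 were called without the block by edgeR or limma-voom, against 2 higher by DESeq2 (3.51% of all genes) and 2 higher at an unadjusted p under 0.05 (7.77% of all genes). FASLG and LTA, ligand genes named after their values were seen, were at 0 in every library. With the block, TNFRSF1B (TNF receptor 2, log2 fold change 1.96, adjusted p = 0.0253) and TNFRSF12A (the TWEAK receptor, 1.32, adjusted p = 0.00931) rose and TNFRSF21 (death receptor 6, -0.67, adjusted p = 0.0262) fell. Over all tested genes 5.10% rose and 4.42% fell with the block. TNFRSF12A was measured at 111, 256 and 407 CPM in WT and at 516, 561 and 637 CPM in STAG2-KD. NGFR and TNFRSF1A, the most abundant of the list otherwise, had log2 fold changes of -0.04 and 0.23 without the block (edgeR adjusted p = 0.989 and 0.797).

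Among 20 receptor adaptors and ubiquitin enzymes, 19 were tested, with RBCK1 higher and 0 lower without the block by edgeR or limma-voom. By edgeR 1.75% of all genes rose and 0.839% fell. DESeq2 called 2 higher (3.51% of all genes), and 2 were higher at an unadjusted p under 0.05 (7.77% of all genes). With the block 2 rose and 0 fell, where 5.10% and 4.42% of all genes did. RIPK1, the kinase that couples receptors to cell death or NF-kB, rose with the block (0.79, adjusted p = 0.0202), from 22.1 to 23.6 CPM across WT to 36.2 to 41.2 CPM across STAG2-KD. PEA15 and DAXX had log2 fold changes of 0.24 and 0.10 without the block (edgeR adjusted p = 0.793 and 0.919). FADD, the adaptor that joins TRAIL receptors to CASP8, was measured at 86.2 ± 21.2 and 118 ± 20.0 CPM (SD, n = 3) with an adjusted p of 0.437, and it is named here after its value was seen.

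All 18 executioner caspase and mitochondrial genes were tested, and 0 were called without the block by edgeR or limma-voom, with 1 lower by DESeq2 (2.77% of all genes) and 3 lower at an unadjusted p under 0.05 (6.98% of all genes). BAD and BMF, both pro-apoptotic BH3-only proteins, fell with the block (-0.70 and -0.88, adjusted p = 0.0400 and 0.0252). Over all tested genes 4.42% fell with the block. BMF lay at 26.0 to 26.1 CPM in WT and 12.6 to 15.6 CPM in STAG2-KD, and BAD at 41.1 to 60.6 and 27.8 to 31.0 CPM. Without replicate 1 in both groups, the fit with the block no longer called BMF, nor TNFRSF21 among the receptors. BAK1 and CYCS had log2 fold changes of 0.29 and 0.37 without the block (edgeR adjusted p = 0.630 and 0.472).

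Of the 10 other IAPs and anti-apoptotic BCL2 proteins, 8 were tested, with BIRC5 lower and 0 higher without the block by edgeR or limma-voom. By edgeR 0.839% of all genes fell and 1.75% rose. DESeq2 called 1 higher and 1 lower (3.51% and 2.77% of all genes). At an unadjusted p under 0.05, 3 were higher and 1 lower (7.77% and 6.98% of all genes). The survival genes BCL2L1, MCL1 and BCL2A1 rose with the block (0.81, 0.67 and 1.55, adjusted p = 0.0202, 0.0194 and 0.0229). Over all tested genes 5.10% rose and 4.42% fell with the block. BCL2L1 lay at 70.0 to 125 CPM in WT and 174 to 182 CPM in STAG2-KD, and MCL1 at 123 to 129 and 173 to 240 CPM. BCL2A1 overlapped between the groups, at 1.91 to 12.2 CPM in WT and 10.1 to 23.3 CPM in STAG2-KD. BIRC6 and BCL2L2 had log2 fold changes of -0.22 and 0.59 without the block (edgeR adjusted p = 0.807 and 0.186).

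**Figure D4:**
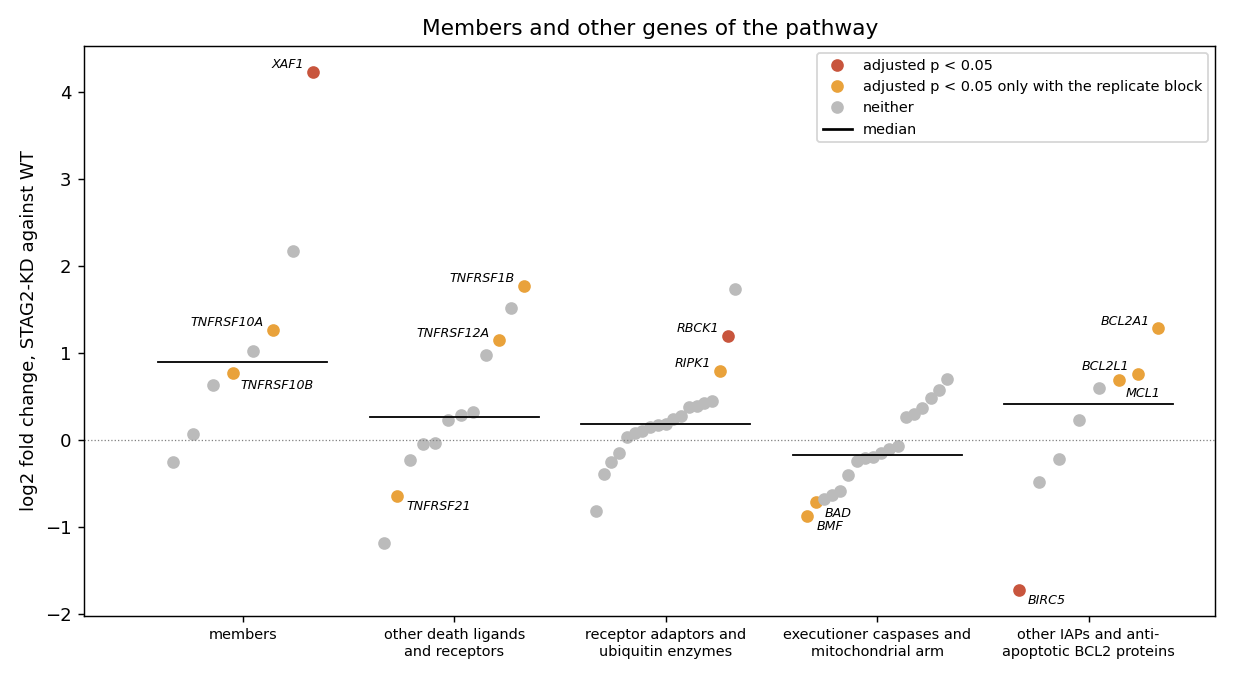
Fitted log2 fold change of STAG2-KD against WT without the block (vertical axis) for each tested gene of the members and the 4 lists, with bars at the list medians. Red points have an adjusted p under 0.05 without the block and orange points with the block only. XAF1 lies highest at 4.23 and BIRC5 lowest at -1.72.

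Among tested genes with a mean of at least 1 CPM, those whose profile over the 6 libraries was most like that of TNFSF10 were MAGEA4, AIM2, VIPR2, DGKG and SP100. The measure was the root mean square difference of log2(CPM + 0.5), each gene centred on its mean, over 13534 genes, and it was 0.208 for MAGEA4, 0.242 for AIM2, 0.265 for VIPR2, 0.304 for DGKG and 0.321 for SP100 against a median of 1.02. Among the members TNFRSF10A ranked 208, CASP10 470, CASP8 588, TNFRSF10B 670, CFLAR 3906, XIAP 11484 and XAF1 12943 in that order. The measure is not scaled, so a gene that differs more between the groups than TNFSF10 ranks low even where it differs in the same direction. MAGEA4, AIM2 and VIPR2 averaged 0.647, 0.542 and 0.0869 CPM in WT and 3.35, 2.14 and 2.12 CPM in STAG2-KD. They passed the cut of 1 CPM through STAG2-KD only. So did CASP10, at 0.784 CPM in WT and 1.59 in STAG2-KD, and TNFSF10 itself, at 0.926 and 4.18 CPM. At such levels the added 0.5 shrinks differences, so likeness between these genes does not show a similar fold change. MAGEA4, AIM2 and VIPR2 were not called without the block (edgeR adjusted p = 0.246, 0.339 and 0.202), while DGKG and SP100 were (0.0460 and 0.00262).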

How the data were processed

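Polyadenylated RNA of the 3 WT and 3 STAG2-KD libraries was sequenced with single 50-base reads. Per the labels, STAR and RSEM were run on hg19, and the table that the authors deposited holds RSEM's expected counts without scaling between libraries. A read that fits more than one gene is shared among them by RSEM. Expected counts were rounded and tested in edgeR 4.0.16 (R 4.3.3) with filterByExpr, TMM and the quasi-likelihood test over 15605 genes, adjusted by Benjamini-Hochberg and called at 0.05. CPM used the same scaled library sizes. Intervals are 95% intervals. Alternatives were DESeq2 1.42.0, limma-voom (limma 3.58.1), upper-quartile scaling, other filters and thresholds, unrounded counts and left-out libraries. Exact tests used scipy 1.17.1. The edgeR, DESeq2 and limma-voom fits were tested on simulated data. The simulated counts held no replicate effect, so they cannot decide between the fits with and without the block.

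The main test had no replicate block, since no source names a pairing of the RNA-seq libraries. For its qPCR of the knockdown the paper used ratio paired t-tests. Deviations from the group means correlated across 13535 genes by 0.434, 0.288 and 0.244 between same-numbered libraries. The block by replicate number, used as an alternative, therefore rests on the data and not on the labels. The other pairs gave -0.317 to 0.135. Between replicates 2 and 3 they gave 0.135 and 0.114, so the pairing is clearest for replicate 1. Centring on the group means also lowers the values of the other pairs. The p-values measure the spread between these libraries, which the study describes as biologically independent samples.

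The members, lists and named-gene rule were chosen with earlier results of these data known. Named genes are the members, STAG2, list genes called in either fit and otherwise the 2 of each list with the highest mean CPM, and the 5 genes most like TNFSF10 among those with a mean of at least 1 CPM. TNFRSF10C, FASLG, LTA and FADD were added after their values were seen, and markers or overlapping genes are named where a result touches them. Positions are from a GRCh37 annotation that may differ from the authors' version. The TNFRSF10D to TNFRSF10B ratio was not computed, as TNFRSF10D was at 0, and the marker PECAM1 has no row in the table used.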

Additional observations from a re-analysis of the deposited data

How the results depend on the processing

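XAF1 kept its direction and its call in 17 of 17 alternatives, with log2 fold changes from 3.81 to 4.85. TNFRSF10A passed in 5 and TNFRSF10B in 3 of them, and TNFSF10, CASP8, CASP10, CFLAR and XIAP in 0. XIAP changed sign without WT replicate 1 (0.10) and without STAG2-KD replicate 3 (0.0012), over a range from -0.79 to 0.10 when single libraries were left out. CFLAR changed sign without STAG2-KD replicate 3, with a range from -0.20 to 0.26 when single libraries were left out and up to 0.34 over the 17 alternatives. The cause was not tested.

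With the replicate block, which pairs libraries by number, 1486 genes passed in place of 404, with 3 members in place of 1 and 11 list genes in place of 2. DESeq2 called 979 genes, 2 members and 7 list genes. Without a filter on low counts the numbers were 1103, 3 and 5. At an adjusted p under 0.01 they were 137 genes and 0 list genes. Without replicate 1 in both groups they were 757 genes and 2 members, and with the block as well 1441 genes, 3 members and 9 list genes. Leaving out single libraries gave 121 to 531 genes and 0 to 2 list genes. The block changed no other member's call. Both ratios kept their direction in every alternative run on them. FAS and TNFRSF10D had too few counts for the filter. TNFSF10 and CASP10, with 18 to 38 and 21 to 24 counts in the WT libraries, had wide intervals, and the cause was not tested.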
